A study of Mus musculus with 6 samples.

Results

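Protein phosphatase 1 (PP1) is a serine/threonine phosphatase built from a catalytic subunit and one of many regulatory subunits, and its subunits were followed here in the tibialis anterior, a fast muscle of the lower hind leg. Members were all genes of the count table whose symbol is Ppp1ca, Ppp1cb or Ppp1cc or is Ppp1r followed by a number and optional letters, less 2 symbols that the rule leaves out. Of 42 matching genes, 33 had 30 or more counts over the 6 libraries, out of 54232 genes in the table. The libraries came from 3 mice with the Dmd ∆Ex51 genotype, a deletion of exon 51 of the dystrophin gene that models Duchenne muscular dystrophy (libraries ∆Ex51 4, ∆Ex51 5 and ∆Ex51 6), and from 3 wild-type mice (WT 1, WT 2 and WT 3). All were C57BL6 and 1 month old, the labels list no treatment, and they name nothing other than the deletion that sets the groups apart. The labels do not say how many ∆Ex51 founder lines were used, or whether the animals were littermates. RNA was from whole muscle, which holds fibres, vessels, nerve and immune cells, so that for each gene fewer cells of a type and less RNA per cell cannot be told apart.

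The catalytic subunit of PP1 has little choice of substrate of its own. Regulatory subunits bind it, many of them through a short RVxF sequence, and carry it to glycogen, to myosin, to actin or into the nucleus, while inhibitor proteins block its active site, several only after they are phosphorylated. In skeletal muscle PP1 is known for activating glycogen synthase and inactivating glycogen phosphorylase at the glycogen particle, and for removing phosphate from the regulatory light chain of myosin.

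Of the 32 members that passed the filter on low counts, 4 were higher and 7 were lower in ∆Ex51 than in WT muscle by edgeR's quasi-likelihood test at an adjusted p under 0.05, here termed called. That is 34.4% of the members called, beside 28.0% of all 14335 genes tested. The 4 higher members make 12.5%, beside a background of 16.1%, and the 7 lower ones make 21.9%, beside 11.9%. These shares over all genes are also the background for the counts by class, gene list and marker list given below. By class, the lower ones were 1 catalytic, 1 glycogen-targeting, 2 myosin-targeting and 2 inhibitor subunits and Ppp1r37, and the 4 higher ones (Ppp1r9b, Ppp1r10, Ppp1r18 and Ppp1r21) stood outside these classes. The 3 libraries of one genotype all lay above the 3 of the other in 18 members, 9 higher and 9 lower, which is 56.2% of those tested beside 45.5% of all genes (23.8% higher and 21.7% lower). The median log2 fold change of ∆Ex51 over WT was -0.11 over the tested members and -0.01 over all genes tested.

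Libraries were scaled by TMM, the trimmed mean of M values, and each direction is relative to that scaling. With library size alone the median over all genes shifted by 0.35 on the log2 scale, and 5394 genes were higher and 334 lower, beside 2309 and 1701 under TMM. Then 10 members were called higher and 1, Ppp1r1a, lower. Without WT 2 the counts were 2 higher and 2 lower, without WT 3 they were 2 and 4, and without ∆Ex51 4 or without ∆Ex51 5 they were 3 and 3. Shares of a subunit within its class, which do not depend on the scaling but do depend on the gene lengths, are therefore given beside the levels. Because the shares of a class add to its whole, a lower share of any subunit raises those of the others.

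**Figure D1:**
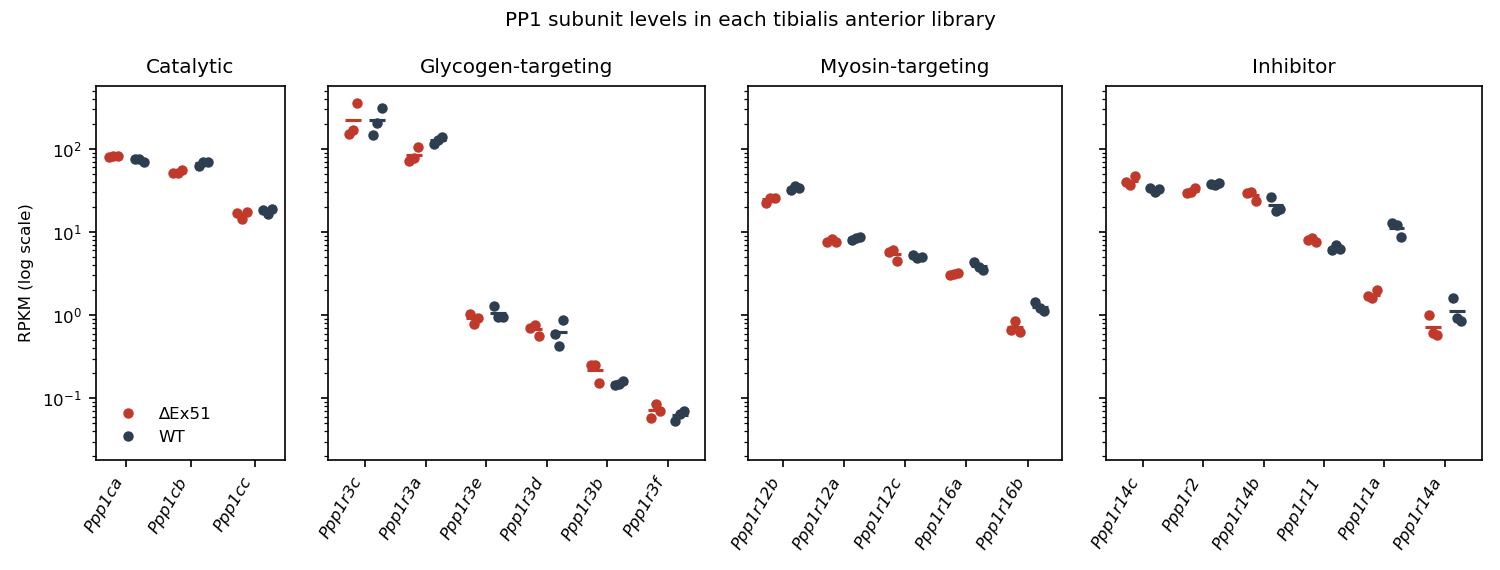
RPKM of each catalytic, glycogen-targeting, myosin-targeting and inhibitor subunit (horizontal axis) on a log axis, with 1 point per library (∆Ex51 left, WT right) and a line at the mean of 3 libraries. The glycogen-targeting class spans the widest range, with means in ∆Ex51 muscle between 225 RPKM for Ppp1r3c and under 1 RPKM for its 4 lowest members, and Ppp1r1a shows the widest gap between genotypes.

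All 3 catalytic isoforms were expressed, and one of them, Ppp1cb, was called lower. Ppp1cb encodes the beta isoform, the usual partner of the myosin-targeting subunits. Its level was 562, 554 and 604 CPM (counts scaled to a common library total with TMM factors) in ∆Ex51 4, 5 and 6, against 681, 770.0 and 762 CPM in WT 1, 2 and 3. Every ∆Ex51 library lay below every WT library. The mean of 573 ± 27.3 CPM in ∆Ex51 muscle was 77.7% of the 738 ± 49.1 CPM in WT muscle (SD, n = 3 each), a log2 fold change of -0.36 (standard error, SE, 0.10; adjusted p = 0.0319). The call was lost without WT 2 (-0.34), without WT 3 (-0.35), without ∆Ex51 4 (-0.35) and without ∆Ex51 5 (-0.33), and scaling by library size alone gave -0.02.

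Ppp1ca, the alpha isoform, had 111, 115 and 112 CPM in ∆Ex51 muscle, against 105, 105 and 95.9 CPM in WT muscle. The groups did not overlap, but the log2 fold change of 0.14 (SE 0.08) was not called (adjusted p = 0.219). Ppp1cc, the gamma isoform, had 57.9, 49.8 and 59.8 CPM in ∆Ex51 muscle, against 64.0, 56.7 and 64.1 CPM in WT muscle. These ranges overlapped, and the log2 fold change was -0.14 (SE 0.10; adjusted p = 0.331).

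With the exon lengths of the deposited table, the alpha isoform had 81.7 RPKM in ∆Ex51 and 73.9 RPKM in WT muscle. The beta isoform had 52.5 RPKM in ∆Ex51 and 67.6 RPKM in WT muscle, and the gamma isoform was lowest at 16.3 RPKM in ∆Ex51 and 18.0 RPKM in WT muscle. As a share of the 3 isoforms, Ppp1ca made up 54.3 ± 1.65% in ∆Ex51 muscle and 46.3 ± 2.25% in WT muscle, with no overlap between genotypes. The share of Ppp1cb was 34.9 ± 0.920% in ∆Ex51 muscle and 42.4 ± 2.39% in WT muscle, again with no overlap. Which of alpha and beta stood first depends on the length taken for Ppp1ca, which is 1379 bases in the deposited table and 2520 bases in GENCODE M21. With the GENCODE length, an alternative chosen after seeing the data, Ppp1ca came to 44.7 RPKM in ∆Ex51 and 40.4 RPKM in WT muscle, below Ppp1cb in both. Its share was then 39.4 ± 1.59% in ∆Ex51 muscle and 32.1 ± 1.97% in WT muscle, and that of Ppp1cb was 46.2 ± 0.818% in ∆Ex51 muscle and 53.6 ± 2.43% in WT muscle. Under either length the share of Ppp1ca was higher, and that of Ppp1cb lower, in every ∆Ex51 library than in any WT library. Of the annotated exon bases of Ppp1ca, 8.9% overlap Rad9a and 7.6% an antisense transcript on the other strand, and the sources used here do not state whether strand was used in counting.

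Among glycogen-targeting subunits, 1 of the 5 tested was called lower and none higher, beside 11.9% and 16.1% of all genes tested. The lower one was Ppp1r3a, which encodes the muscle subunit GM that holds PP1 at glycogen and the sarcoplasmic reticulum. It lies on the minus strand of chr6:14713977-14755274 (GRCm38). Ppp1r3a had 494, 542 and 743 CPM in ∆Ex51 4, 5 and 6, against 797, 888 and 972 CPM in WT 1, 2 and 3. ∆Ex51 6 came closest to the WT range without reaching it. The mean was 593 ± 132 CPM in ∆Ex51 muscle and 886 ± 87.6 CPM in WT muscle, a log2 fold change of -0.58 (SE 0.17; adjusted p = 0.0354). It lost its call without WT 2 (-0.58), WT 3 (-0.51), ∆Ex51 4 (-0.46) or ∆Ex51 5 (-0.51), and under scaling by library size alone (-0.24).

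∆Ex51 6 was likewise the ∆Ex51 library nearest WT in the sum of the markers of muscle fibres. Their 7 genes summed to between 75741 and 105464 CPM in the ∆Ex51 libraries, with ∆Ex51 6 the highest, against 114705 to 117529 CPM in the WT libraries, although 0 of the 7 were called and none was at 0 counts. Myh4 alone gave 38588 CPM of the sum in ∆Ex51 6. By single marker, ∆Ex51 6 was the ∆Ex51 library nearest WT in Acta1, Ckm, Myh4 and Tnnt3. It was the farthest from WT in Myh1 (8929 CPM), Mylpf (8825 CPM) and Pvalb (5480 CPM). The part of these markers in the result for Ppp1r3a was not tested.

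The 250 bases before the start of Ppp1r3a (RefSeq, GRCm38.p6, minus strand, chr6:14755275-14755524) are shown because this window was the one member promoter that holds a match to the MEF2 motif, the binding sequence of a family of muscle transcription factors. Capitals mark the matches searched on both strands: E-boxes (CANNTG, bound by MyoD and related factors), the MEF2 motif, and TATAAA.
Ppp1r3a: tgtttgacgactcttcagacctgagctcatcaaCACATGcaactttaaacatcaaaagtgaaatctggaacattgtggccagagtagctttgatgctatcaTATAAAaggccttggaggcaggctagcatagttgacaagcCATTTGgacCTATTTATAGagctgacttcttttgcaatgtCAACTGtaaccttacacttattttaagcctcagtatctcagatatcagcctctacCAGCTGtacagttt
Its 4 E-boxes begin 217, 109, 69 and 14 bases before the start. The MEF2 match runs between 100 and 91 bases before it and overlaps a TATAAA match on the other strand, and a further TATAAA lies between 149 and 144 bases before it. An E-box stands in 66.2%, the MEF2 motif in 2.9% and TATAAA in 12.4% of all 32851 mouse promoter windows of this length. Of the 33 members 27 had such windows, 34 in all. Of these 34 windows, 20 held an E-box (17 members) and 5 held TATAAA (5 members). The cyclic AMP response element TGACGTCA stood in 1 window, of Ppp1r12c, and stands in 1.5% of all windows. At 40.4% G and C, the Ppp1r3a window was the lowest of the member windows, whose median was 62.8% beside 52.4% over all windows. A match is a description of letters only.

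Ppp1r3c encodes PTG (protein targeting to glycogen), which brings PP1 together with glycogen synthase, and it was the highest of all PP1 subunits per length. Its level was 409, 456 and 973 CPM in ∆Ex51 4, 5 and 6, against 406, 554 and 851 CPM in WT 1, 2 and 3. The spread within each genotype exceeded any difference between them. The means of 225 ± 115 RPKM in ∆Ex51 muscle and 222 ± 83.4 RPKM in WT muscle gave a log2 fold change of 0.02 (SE 0.37; adjusted p = 0.971). Leaving out single libraries moved it between -0.48 without ∆Ex51 6 and 0.35 without WT 3, and a difference of this size in either direction was not detectable at this spread.

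The 4 remaining glycogen-targeting members were near or below 1 RPKM. Ppp1r3b, the liver form GL, had 1.54, 1.57 and 0.935 CPM in ∆Ex51 muscle, against 0.885, 0.931 and 1.00 CPM in WT muscle (log2 fold change 0.53, SE 0.29; adjusted p = 0.199). Ppp1r3d, the subunit R6, had 2.31, 2.49 and 1.82 CPM in ∆Ex51 muscle, against 1.94, 1.37 and 2.86 CPM in WT muscle (0.12, SE 0.30; adjusted p = 0.787). Ppp1r3e, a further glycogen-binding subunit, had 2.61, 1.97 and 2.34 CPM in ∆Ex51 muscle, against 3.26, 2.41 and 2.36 CPM in WT muscle (-0.22, SE 0.22; adjusted p = 0.494). The libraries of the genotypes overlapped in all of these. Ppp1r3f, with 0.299, 0.437 and 0.363 CPM in ∆Ex51 muscle and 0.277, 0.329 and 0.358 CPM in WT muscle, was not tested because it failed the filter. With 40 counts in all it was also the member just inside the minimum of 30, while Ppp1r32, with 20 counts, was the nearest outside it.

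Ppp1r3c and Ppp1r3a together made up nearly all of the class. Ppp1r3c took 70.6 ± 5.31% of the summed RPKM in ∆Ex51 muscle and 62.1 ± 6.39% in WT muscle, and Ppp1r3a took 28.7 ± 5.03% in ∆Ex51 muscle and 37.4 ± 6.24% in WT muscle. Both shares overlapped between genotypes.

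Of 14 listed enzymes and regulators of glycogen, 5 were called lower and 1 higher, with a median log2 fold change of -0.34. Over all genes tested, 11.9% were lower and 16.1% higher. Epm2a, the glycogen phosphatase laforin, had 93.6 ± 16.2 CPM in ∆Ex51 muscle and 142 ± 4.61 CPM in WT muscle (-0.60, adjusted p = 0.0113). Gyg, the glycogenin that primes new glycogen, had 277 ± 12.6 CPM in ∆Ex51 muscle and 353 ± 20.1 CPM in WT muscle (-0.35, adjusted p = 0.0256). Phkg1, the catalytic subunit of muscle phosphorylase kinase, had 283 ± 68.3 CPM in ∆Ex51 muscle and 426 ± 7.91 CPM in WT muscle (-0.59, adjusted p = 0.0291). Gys1, the glycogen synthase of muscle, was also called lower, at 452 ± 57.5 CPM in ∆Ex51 muscle and 613 ± 60.9 CPM in WT muscle (-0.44, adjusted p = 0.0377). Pygm, the glycogen phosphorylase of muscle, had 4043 ± 1256 CPM in ∆Ex51 muscle and 6190 ± 86.5 CPM in WT muscle. It was not called (-0.61, adjusted p = 0.0647). The one gene called higher was Stbd1, which binds glycogen and tethers it to membranes, at 102 ± 9.23 CPM in ∆Ex51 muscle and 49.5 ± 4.04 CPM in WT muscle (1.04, adjusted p = 0.000769). Under library size alone Stbd1 was the 1 gene of the list called, the median was 0.01, and Gyg stood at -0.00286. Left-out libraries gave between 1 and 9 lower genes. Gyg and Phkg1 lost their calls without any one of WT 1, WT 2, WT 3, ∆Ex51 4 and ∆Ex51 5, at -0.39 to -0.31 for Gyg and -0.61 to -0.46 for Phkg1.

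Myosin-targeting subunits were called lower in 2 of 5 cases and higher in none, beside 11.9% lower and 16.1% higher among all genes tested. Ppp1r12b encodes MYPT2, the myosin phosphatase target subunit typical of striated muscle, and lies on the minus strand of chr1:134754658-134955942. It had 337, 389.5 and 382 CPM in ∆Ex51 4, 5 and 6, against 485, 539 and 502 CPM in WT 1, 2 and 3. No ∆Ex51 library reached the WT range. The mean of 370 ± 28.3 CPM in ∆Ex51 muscle was 72.7% of the 509 ± 27.7 CPM in WT muscle (log2 fold change -0.46, SE 0.10; adjusted p = 0.0135). That call was lost without WT 2 (-0.42), without ∆Ex51 4 (-0.40) and by library size alone (-0.11).

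Ppp1r16b encodes TIMAP, a membrane-bound subunit best known from endothelial cells. It had 5.86, 7.57 and 5.50 CPM in ∆Ex51 4, 5 and 6, against 12.7, 10.7 and 10.03 CPM in WT 1, 2 and 3. The groups were well apart, with means of 6.31 ± 1.10 CPM in ∆Ex51 muscle and 11.1 ± 1.37 CPM in WT muscle, or 56.6% of WT. The log2 fold change was -0.82 (SE 0.16; adjusted p = 0.00917), and -0.46 with adjusted p = 0.0957 by library size alone. Endothelial markers fell in 4 of 8 cases and rose in none, none was at 0 counts, and their sum was 359.6 to 448 CPM in the ∆Ex51 libraries and 510.2 to 605 CPM in the WT libraries. Smooth muscle and pericyte markers fell in 2 of 7 cases, with sums of 710.1 to 819 CPM in the ∆Ex51 libraries and 1092 to 1219 CPM in the WT libraries, again with no marker at 0 counts. ∆Ex51 6 had both the least Ppp1r16b and the lowest endothelial sum of all 6 libraries, and the part of these markers in the result was not tested.

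Ppp1r12a, the widely expressed MYPT1, had 61.6, 66.1 and 60.03 CPM in ∆Ex51 muscle, against 63.9, 68.4 and 69.0 CPM in WT muscle (-0.10, SE 0.08; adjusted p = 0.396). Ppp1r12c, a further member of the MYPT family, had 28.9, 30.1 and 22.2 CPM in ∆Ex51 muscle, against 26.3, 24.1 and 24.5 CPM in WT muscle (0.12, SE 0.13; adjusted p = 0.527). The libraries of both genes overlapped. Ppp1r16a, the membrane-anchored MYPT3, had 12.4, 13.0 and 13.2 CPM in ∆Ex51 muscle, against 18.0, 15.6 and 14.5 CPM in WT muscle. All ∆Ex51 libraries were lower, but the log2 fold change of -0.32 (SE 0.11) was not called (adjusted p = 0.0678).

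Within the class the order of levels per length was the same in both genotypes, from Ppp1r12b at 24.7 RPKM in ∆Ex51 and 33.9 RPKM in WT muscle down to Ppp1r16b. Ppp1r12b nevertheless made up a smaller share, 59.0 ± 2.55% in ∆Ex51 muscle and 64.6 ± 1.64% in WT muscle, with no overlap. Ppp1r12a took 18.7 ± 0.613% in ∆Ex51 muscle and 15.9 ± 0.625% in WT muscle, and Ppp1r12c took 13.1 ± 1.98% in ∆Ex51 muscle and 9.61 ± 0.692% in WT muscle. Both of these shares were higher in every ∆Ex51 library than in any WT library. The levels of these 2 genes were not called (-0.10 for Ppp1r12a and 0.12 for Ppp1r12c).

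**Figure D2:**
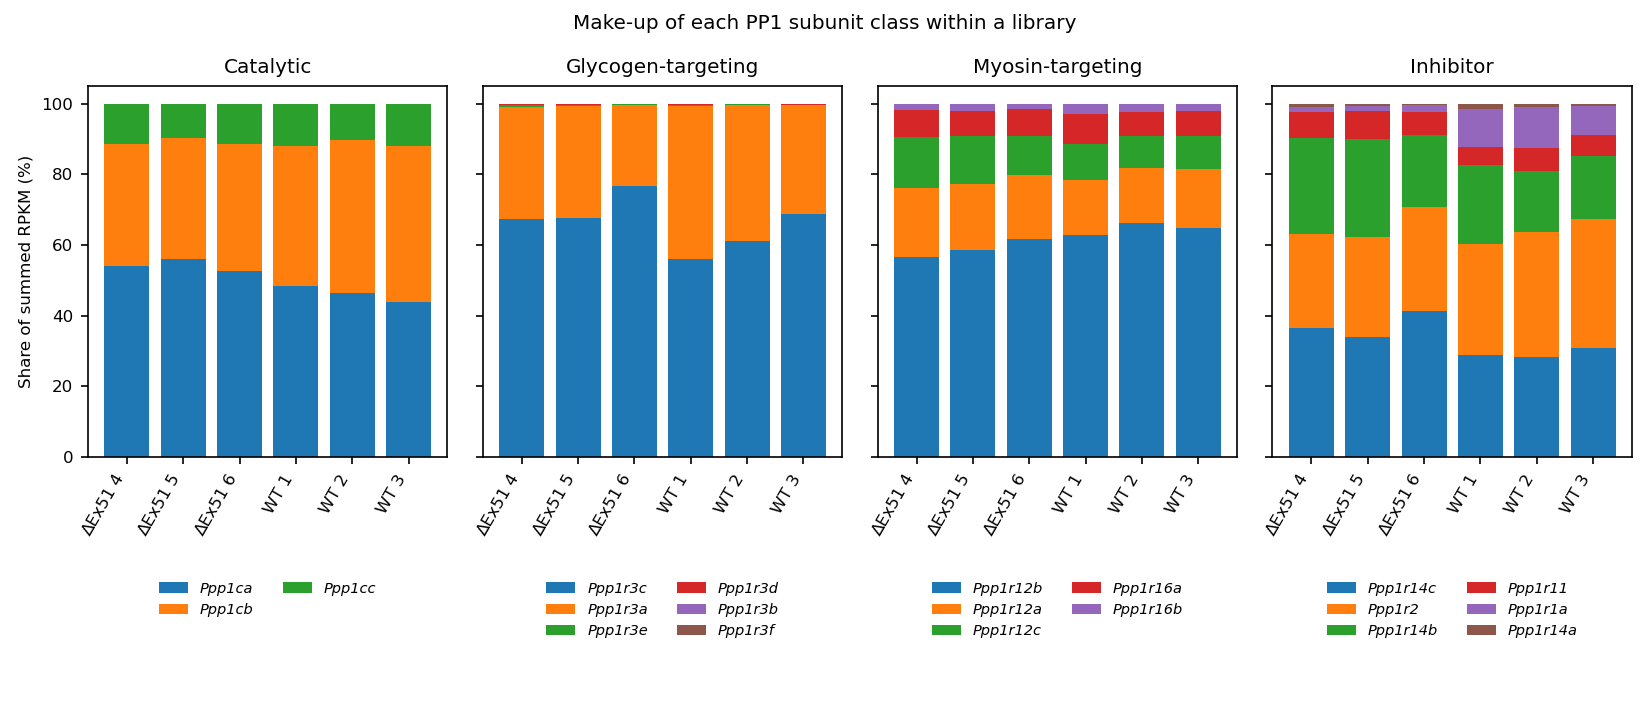
Share of each subunit in the summed RPKM of its class (percent, vertical axis; deposited gene lengths) in each library, ∆Ex51 left and WT right; each stacked bar adds to the whole class. Ppp1ca made up 54.3% of catalytic transcripts in ∆Ex51 and 46.3% in WT muscle, and Ppp1r1a made up 1.59% of inhibitor transcripts in ∆Ex51 and 10.2% in WT muscle.

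Of 17 listed genes that set myosin light chain phosphorylation, which myosin phosphatase reverses, 15 were tested. Of these, 3 were called higher and 2 lower, beside 16.1% and 11.9% of all genes tested. The median log2 fold change was 0.18. Mylk, a myosin light chain kinase of smooth muscle and other cells, had 35.6 ± 2.11 CPM in ∆Ex51 muscle and 52.1 ± 0.509 CPM in WT muscle (-0.55, adjusted p = 0.00305). Rhoc, a small GTPase that acts on the actin cytoskeleton, had 32.5 ± 8.38 CPM in ∆Ex51 muscle and 16.6 ± 2.99 CPM in WT muscle (0.97, adjusted p = 0.0103). Its relative Rhoa had 113 ± 8.99 CPM in ∆Ex51 muscle and 84.5 ± 2.35 CPM in WT muscle (0.42, adjusted p = 0.0114). The kinase thus fell while both GTPases rose. Myl12b, a non-muscle regulatory light chain, had 18.1 ± 1.57 CPM in ∆Ex51 muscle and 13.2 ± 0.595 CPM in WT muscle (0.46, adjusted p = 0.0151). By library size alone 8 genes were higher, 0 lower, and Mylk was at -0.20. Rhoa lost its call without WT 2 (0.39), and Myl12b without WT 2 (0.45) and without ∆Ex51 5 (0.40).

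Inhibitor subunits were called lower in 2 of 6 cases and higher in none, beside 11.9% lower and 16.1% higher among all genes tested. This class was a hand-picked list, and Ppp1r37, described below as an inhibitor of PP1, was placed outside it. Ppp1r1a encodes inhibitor-1, which blocks PP1 once protein kinase A has phosphorylated it, and lies on the minus strand of chr15:103530279-103538003. It had 2.22, 2.10 and 2.60 CPM in ∆Ex51 4, 5 and 6, against 16.9, 16.1 and 11.3 CPM in WT 1, 2 and 3. Even the lowest WT library, WT 3, was far above all ∆Ex51 libraries. At 2.31 ± 0.258 CPM in ∆Ex51 muscle and 14.8 ± 3.02 CPM in WT muscle, the level in ∆Ex51 was 15.6% of that in WT (log2 fold change -2.68, SE 0.19; adjusted p = 0.000297). It was called under all 17 alternatives tried, at -2.85 to -1.86. Among the markers, those of Schwann cells were called lower in 3 of 5 cases and higher in none, with sums of 71.7 to 76.9 CPM in the ∆Ex51 libraries and 99.6 to 113 CPM in the WT libraries and none at 0 counts. The part of these markers, and of the other lists given here, in the result for Ppp1r1a was not tested.

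Ppp1r2 encodes inhibitor-2, which binds the catalytic subunit directly. It had 131, 136 and 149 CPM in ∆Ex51 4, 5 and 6, against 167, 165 and 172 CPM in WT 1, 2 and 3. Every ∆Ex51 library was below every WT library, and the mean of 139 ± 9.26 CPM in ∆Ex51 muscle was 82.4% of the 168 ± 3.74 CPM in WT muscle (-0.28, SE 0.09; adjusted p = 0.046). This was the call lost most often: it was lost with no expression filter, by the likelihood-ratio test, without WT 1 (-0.29), WT 2 (-0.30), WT 3 (-0.27), ∆Ex51 4 (-0.24) or ∆Ex51 5 (-0.26), and the direction reversed to 0.07 by library size alone. The 7 pseudogenes of Ppp1r2 in the table held 15 counts in all.

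The window of 250 bases before the start of Ppp1r2 (RefSeq, GRCm38.p6, minus strand, chr16:31275278-31275527) is shown because, unlike that of Ppp1r3a, it carries runs of G and C near the start (59.2% G and C over the window). Both windows were also chosen for holding no annotated exon. Capitals mark 1 E-box and 2 matches of TATAAA.
Ppp1r2: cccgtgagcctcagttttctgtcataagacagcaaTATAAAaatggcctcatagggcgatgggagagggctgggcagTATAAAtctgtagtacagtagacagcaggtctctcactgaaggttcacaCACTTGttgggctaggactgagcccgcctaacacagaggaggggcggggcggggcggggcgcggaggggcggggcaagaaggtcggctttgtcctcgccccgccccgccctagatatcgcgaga
The E-box lies between 124 and 119 bases before the start, and the TATAAA matches begin 215 and 173 bases before it. No MEF2 match was found in this window.

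Inhibitors that were not called lay on either side of 0. Ppp1r14c encodes KEPI, an inhibitor that protein kinase C activates, and had 105, 96.8 and 124 CPM in ∆Ex51 muscle, against 89.6, 78.5 and 86.7 CPM in WT muscle. The groups did not overlap, and the log2 fold change of 0.36 (SE 0.11) fell just short of a call (adjusted p = 0.0502). It was called under 10 of the 17 alternatives. Ppp1r11, inhibitor-3, had 16.0, 16.8 and 14.9 CPM in ∆Ex51 muscle, against 12.1, 13.6 and 12.5 CPM in WT muscle, also without overlap (0.32, SE 0.10; adjusted p = 0.0534). Ppp1r14b, the related inhibitor PHI-1, had 27.3, 27.6 and 21.7 CPM in ∆Ex51 muscle, against 24.3, 16.5 and 17.6 CPM in WT muscle (0.39, SE 0.17; adjusted p = 0.119). Ppp1r14a encodes CPI-17, an inhibitor of myosin phosphatase in smooth muscle, and had 1.37, 0.831 and 0.779 CPM in ∆Ex51 muscle, against 2.21, 1.26 and 1.15 CPM in WT muscle (-0.63, SE 0.36; adjusted p = 0.221). Libraries overlapped for Ppp1r14b and Ppp1r14a.

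The sum of the 6 members of the inhibitor class was 111 ± 3.26 RPKM in ∆Ex51 muscle and 110.4 ± 7.51 RPKM in WT muscle. It differed by less than its spread, while its make-up differed. The length of Ppp1r14b also differs, 919 bases in the deposited table and 1526 in GENCODE M21; with the second the sums were 99.996 ± 4.696 RPKM in ∆Ex51 muscle and 102 ± 5.68 RPKM in WT muscle. Ppp1r14c supplied 37.3 ± 3.76% in ∆Ex51 muscle and 29.4 ± 1.38% in WT muscle, and was higher in every ∆Ex51 library. Ppp1r2 supplied 28.1 ± 1.24% in ∆Ex51 muscle and 34.4 ± 2.49% in WT muscle, and Ppp1r1a supplied 1.59 ± 0.130% in ∆Ex51 muscle and 10.2 ± 1.88% in WT muscle. Both were lower in every ∆Ex51 library. With the GENCODE length these shares were 41.4%, 31.2% and 1.76% in ∆Ex51 muscle and 31.8%, 37.2% and 11.1% in WT muscle for Ppp1r14c, Ppp1r2 and Ppp1r1a, again without overlap between genotypes.

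Protein kinase A, the kinase that activates inhibitor-1, was represented by a list of 9 genes with 2 called higher and 2 lower (median log2 fold change 0.02). Among all genes tested, 16.1% were higher and 11.9% lower. Of the 4 regulatory subunits of the kinase, 1 fell, 2 rose and Prkar1b was not called (0.31, adjusted p = 0.36). Prkar2a had 259.7 ± 25.1 CPM in ∆Ex51 muscle and 406 ± 4.99 CPM in WT muscle (-0.65, adjusted p = 0.00372). Prkar1a had 289.8 ± 25.2 CPM in ∆Ex51 muscle and 213 ± 11.03 CPM in WT muscle (0.44, adjusted p = 0.0145), and lost its call without WT 2 (0.39). Prkar2b had 6.28 ± 2.38 CPM in ∆Ex51 muscle and 1.81 ± 0.735 CPM in WT muscle (1.82, adjusted p = 0.0101). The kinase inhibitor Pkia fell alongside Prkar2a, at 624 ± 81.4 CPM in ∆Ex51 muscle and 959 ± 20.1 CPM in WT muscle (-0.62, adjusted p = 0.00822). By library size alone 4 genes of this list were higher and 2 lower.

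**Figure D3:**
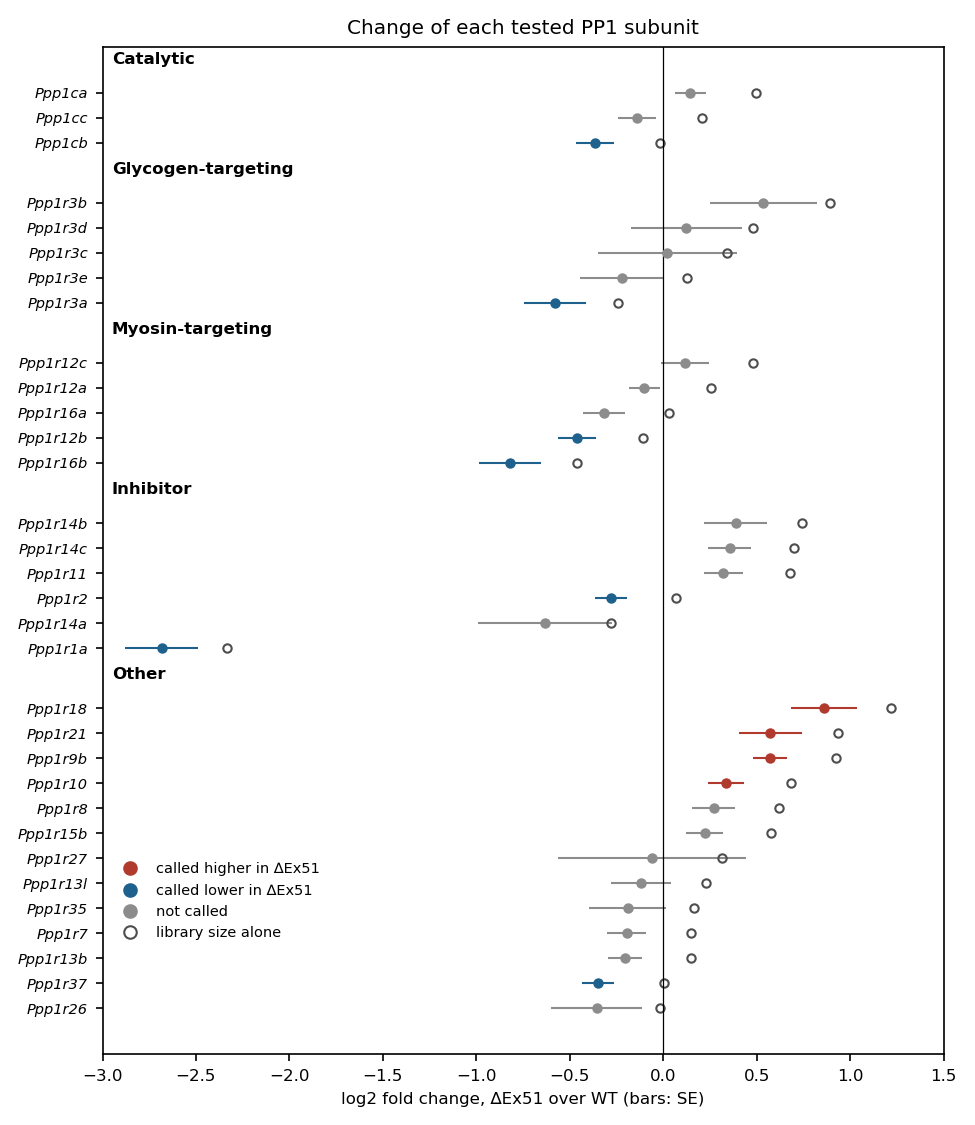
Log2 fold change of ∆Ex51 over WT (horizontal axis, bars are SE) of the 32 tested PP1 subunits by class; filled points are TMM-scaled edgeR estimates and open circles the estimates from library size alone. Ppp1r1a stands farthest from 0 at -2.68, and open circles lie to the right of the filled points, by about the 0.35 that separates the scalings over all genes.

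The 13 other subunits held all 4 of the called rises and 1 of the falls, beside 16.1% higher and 11.9% lower among all genes tested. Ppp1r9b encodes spinophilin, which ties PP1 to actin, and lies on the plus strand of chr11:94991035-95006899. It had 52.3, 56.6 and 48.4 CPM in ∆Ex51 4, 5 and 6, against 37.0, 33.6 and 35.3 CPM in WT 1, 2 and 3. The groups were clearly apart, at 52.4 ± 4.08 CPM in ∆Ex51 muscle and 35.3 ± 1.71 CPM in WT muscle (0.57, SE 0.09; adjusted p = 0.00421). Ppp1r18 encodes phostensin, an actin-binding subunit abundant in blood cells, and had 17.7, 21.8 and 14.6 CPM in ∆Ex51 muscle, against 11.7, 8.77 and 9.38 CPM in WT muscle. Its mean was 18.0 ± 3.61 CPM in ∆Ex51 muscle and 9.94 ± 1.53 CPM in WT muscle, 181% of WT (0.86, SE 0.18; adjusted p = 0.010). Both genes were called under all 17 alternatives, at 0.52 to 0.93 for Ppp1r9b and 0.71 to 1.22 for Ppp1r18.

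Ppp1r21, an early endosome protein, had 11.8, 17.0 and 11.6 CPM in ∆Ex51 4, 5 and 6, against 9.63, 8.60 and 8.95 CPM in WT 1, 2 and 3. ∆Ex51 5 stood above the other two libraries of its group, and the means were 13.5 ± 3.07 CPM in ∆Ex51 muscle and 9.06 ± 0.521 CPM in WT muscle (0.57, SE 0.17; adjusted p = 0.0384). The call was lost without WT 1 (0.61), WT 2 (0.53), WT 3 (0.56) or ∆Ex51 5 (0.38), the largest shift being that without ∆Ex51 5, and under limma-voom (0.55, adjusted p = 0.0532). Ppp1r10 encodes PNUTS, a nuclear subunit that acts on RNA polymerase II, and had 22.5, 21.7 and 24.7 CPM in ∆Ex51 muscle, against 19.1, 17.9 and 17.7 CPM in WT muscle. It did not overlap between genotypes (0.33, SE 0.09; adjusted p = 0.033), but lost its call without any one of the 6 libraries, at 0.28 (without ∆Ex51 6) to 0.38 (without ∆Ex51 5), under DESeq2 (adjusted p = 0.0602) and with no expression filter (adjusted p = 0.0607).

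Macrophage markers were also higher. All 8 were called higher, none was at 0 counts, and their sum was 496 to 1142 CPM in the ∆Ex51 libraries and 64.5 to 131 CPM in the WT libraries. ∆Ex51 5 had the highest macrophage sum and the highest Ppp1r9b, Ppp1r18 and Ppp1r21 of its group, and ∆Ex51 6 had the lowest of each. Ppp1r10 was lowest in ∆Ex51 5 and highest in ∆Ex51 6. Lists for regenerating fibres (256 to 346 CPM in ∆Ex51 libraries, 26.3 to 31.2 CPM in WT libraries) and for proliferation (17.5 to 104 CPM in ∆Ex51 libraries, 2.41 to 5.44 CPM in WT libraries) had 5 genes each, all called higher and none at 0 counts. Markers of fibro-adipogenic cells were called higher in 3 of 4 cases, with sums of 756 to 940.04 CPM in the ∆Ex51 libraries and 498 to 680.03 CPM in the WT libraries and none at 0 counts. The order of the ∆Ex51 libraries was not particular to macrophage markers. Sums for proliferation (88.1, 104 and 17.5 CPM in ∆Ex51 4, 5 and 6), endothelial (431, 448 and 360 CPM) and adipocyte markers (167, 273 and 162 CPM) were also highest in ∆Ex51 5 and lowest in ∆Ex51 6. Those for regenerating fibres and fibro-adipogenic cells were lowest in ∆Ex51 5 and highest in ∆Ex51 6. The part of any of these lists in the results was not tested.

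Ppp1r37, a leucine-rich repeat inhibitor of PP1 outside the inhibitor class used here, was the other subunit called lower. Its level was 46.4, 43.3 and 43.5 CPM in ∆Ex51 muscle, against 59.6, 58.1 and 51.9 CPM in WT muscle. The groups did not overlap (-0.35, SE 0.09; adjusted p = 0.0214). It was lost without WT 1 (-0.32), WT 2 (-0.34) or ∆Ex51 5 (-0.32), and stood at 0.00269 by library size alone.

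The rest were not called. Ppp1r27, which binds dysferlin in muscle, was the highest of the other subunits per length (24.1 RPKM in ∆Ex51 and 25.1 RPKM in WT muscle). Its level was 30.1, 17.8 and 7.79 CPM in ∆Ex51 muscle, against 32.1, 13.9 and 12.0 CPM in WT muscle, so single libraries of 1 genotype differed more than the genotypes did (-0.06, SE 0.50; adjusted p = 0.939). Ppp1r15b encodes CReP, which directs PP1 to the translation factor eIF2 alpha, and had 43.2, 47.6 and 43.5 CPM in ∆Ex51 muscle, against 34.5, 39.0 and 41.7 CPM in WT muscle. Ppp1r8 encodes the nuclear subunit NIPP1, and had 16.1, 15.3 and 15.4 CPM in ∆Ex51 muscle, against 14.7, 12.5 and 11.6 CPM in WT muscle. Both were higher in every ∆Ex51 library without a call (Ppp1r15b 0.22, adjusted p = 0.127; Ppp1r8 0.27, adjusted p = 0.118). Ppp1r13b, the p53 partner ASPP1, had 16.0, 16.5 and 16.4 CPM in ∆Ex51 muscle, against 19.8, 18.1 and 18.4 CPM in WT muscle, lower in every ∆Ex51 library (-0.20, adjusted p = 0.128). Ppp1r7, the nuclear subunit Sds22, had 29.6, 30.6 and 36.7 CPM in ∆Ex51 muscle, against 35.8, 36.8 and 38.2 CPM in WT muscle, with overlap (-0.19, adjusted p = 0.198). The p53 partner Ppp1r13l (iASPP), the centriole protein Ppp1r35 and Ppp1r26 had log2 fold changes of -0.36 to -0.12.

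PP1 partners that carry other names were split, with 4 of 21 tested genes higher and 4 lower (median log2 fold change -0.03). The shares over all genes tested were 16.1% higher and 11.9% lower. Lmtk2, a kinase that binds PP1, had 38.2 ± 4.03 CPM in ∆Ex51 muscle and 64.9 ± 3.302 CPM in WT muscle (-0.77, adjusted p = 0.0020). Phactr1, which binds PP1 and actin, also fell (-0.72, adjusted p = 0.0171). Those that rose most bring PP1 to chromosomes in dividing cells: Knl1 at the kinetochore had 3.47 ± 2.51 CPM in ∆Ex51 muscle and 0.345 ± 0.0778 CPM in WT muscle (3.34, adjusted p = 0.0121), and Cdca2 had a log2 fold change of 2.49 (adjusted p = 0.0174). The proliferation markers given above stood with them, and their part was not tested. By library size alone 10 partners were higher and 1 lower, and Phactr1 was not called (-0.37). With limma-voom 1 partner was higher and 4 were lower, and Knl1 (2.94, adjusted p = 0.0665) and Cdca2 (2.29, adjusted p = 0.0505) were not called. Calls were also lost for Knl1 without WT 2 (3.31), for Phactr1 without WT 1 (-0.62) and ∆Ex51 5 (-0.69), and for Cdca2 without WT 1 (2.24), WT 3 (2.40) and ∆Ex51 5 (2.08).

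Beside Ppp1r15b, a list of eIF2 alpha and its 4 kinases had 1 called member, against 28.0% called over all genes tested. Eif2ak3, the endoplasmic reticulum stress kinase PERK, had 9.003 ± 0.768 CPM in ∆Ex51 muscle and 6.24 ± 0.477 CPM in WT muscle (0.53, adjusted p = 0.0215). It lost the call without WT 2 (0.46), WT 3 (0.54), ∆Ex51 4 (0.46) or ∆Ex51 5 (0.57), and 3 of the 5 genes were higher by library size alone.

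**Figure D4:**
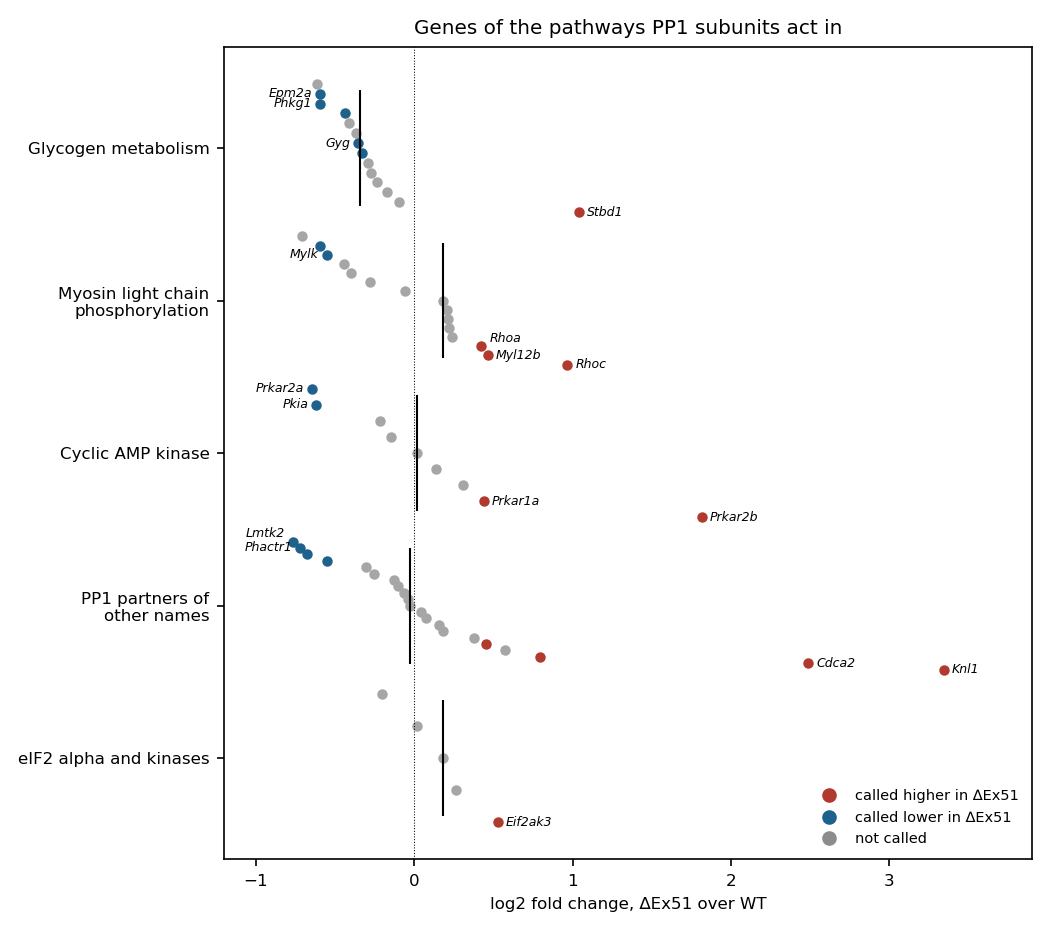
Log2 fold change of ∆Ex51 over WT (horizontal axis) of the tested genes of 5 lists of pathways in which PP1 acts; each point is a gene and each black line a list's median. The glycogen list lies left of 0 (median -0.34) apart from Stbd1, and Knl1 and Cdca2 lie farthest right.

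Members below the minimum numbered 9. Ppp1r3g, Ppp1r14d, Ppp1r17 and Ppp1r1c had 0 counts in all libraries, which allows up to 0.0261 CPM over the 6 libraries together. Ppp1r1b (DARPP-32, the inhibitor known from striatal neurons), Ppp1r32, Ppp1r42, Ppp1r36 and the antisense RNA Ppp1r18os had between 3 and 20 counts.

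Exons of some members overlap a gene on the opposite strand, so their counts are uncertain where strand was not used. The overlap was 29.2% of exon bases for Ppp1r14c (with Gm26752, 22 counts in all), 11.4% for Ppp1r15b (with Gm26616, 29 counts), 11.2% for Ppp1r3f and at most 4.7% for Ppp1r12b, Ppp1r18, Ppp1r7 and Ppp1r14b. Genes on the same strand, which strand cannot separate, overlap 17.5% of exon bases of Ppp1cb (Gm43312, 1 count) and 46.9% of Ppp1r3f (Gm36995, 7 counts). For Ppp1r10 it was 1.4% (Mir1894, 0 counts).

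In the authors' deposited table of the same comparison, 32 members were listed, 4 of them higher and 8 lower at an adjusted p under 0.05. Of the 11 called here, 10 were called there in the same direction and 0 in the other. The authors' deposited table gave log2 fold changes of -2.71 for Ppp1r1a, -0.40 for Ppp1cb and -0.61 for Ppp1r3a. Ppp1r10 was not called in the authors' deposited table (adjusted p = 0.112), while that table called Ppp1r11 (0.29, adjusted p = 0.0274) and Ppp1r16a, which were not called here.

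Totals of reads assigned to genes ran between 15681945 and 21020353 per library. Dmd transcripts, counted over the whole gene, were 46.4 to 51.1 CPM in the ∆Ex51 libraries and 235 to 266 CPM in the WT libraries (log2 fold change -2.37); a gene-level count cannot show the missing exon itself. All 7 fibre markers of the labelled tissue had counts. Along the first principal component, with 73% of the variance, ∆Ex51 6 (21.3) lay nearest the WT libraries (-41.5 to -29.2), while the other ∆Ex51 libraries were at 38.8 and 41.8; leaving it out gave 4 members higher and 8 lower.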

How the data were processed

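Stranded poly(A) libraries of tibialis anterior RNA were made with a KAPA kit, per the labels' protocols. The authors deposited whole-number read counts per gene, with exon lengths; FastQC 0.11.4, the counter featureCounts 1.6.0, GRCm38 (mm10) and edgeR 3.30.1 stand in the submitters' processing notes. Which aligner, strand setting and annotation were used is not given in the sources here. The authors also deposited RPKM values, which lie above 0 where counts are 0 through an unstated adjustment and were used as an alternative alone. Per the file headers, the authors' own comparison lists log2 fold changes, log2 CPM, a likelihood-ratio score, p-values and their −log10.

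From the counts, CPM and RPKM were computed here with TMM scaling and the deposited lengths. Genotypes were compared with edgeR 4.0.16 (R 4.3.3) by its quasi-likelihood test, two-sided, after the filterByExpr filter, with Benjamini-Hochberg adjustment over 14335 genes; SE is the absolute log2 fold change over the square root of F. The SD is over 3 libraries. Library totals were 15681945 to 21020353 counts, and the limit for 0 counts is 3 counts and covers counting error only. The labels call the libraries biological replicates without tying them to litters or days. The p-values therefore set the difference between genotypes against the spread between these libraries, estimated with information shared over genes. An exact permutation test of 3 against 3 cannot go below p = 0.1 and was not used. Counts of libraries in a group differed by a chi-square of 8.83 to 48.7 per degree of freedom, so none repeats another.

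Members, roles, gene lists and the rule for named genes (every member, those called with values per library, and up to 4 called genes per list by smallest adjusted p) were chosen with earlier results of these data known. Gys1, Pygm, Prkar1b and the fibre markers named singly were outside this rule. Alternatives were other scalings, other filters, DESeq2 1.42.0, limma 3.58.1 (voom, and trend on log2 RPKM), edgeR's likelihood-ratio test, a replicate block, each library left out and, added after seeing the data, GENCODE M21 lengths for levels and shares. The test was tried on simulated data. Positions are from GENCODE M21 and promoter windows from RefSeq; some members have no window in that table and are named without one. The 2 symbols left out by the rule are not reported here.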

Additional observations from a re-analysis of the deposited data

How the results depend on the processing

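The counts of 4 members higher and 7 lower were within 1.5 times under DESeq2 size factors or DESeq2 itself, TMM without the 20 most abundant genes, other filters, voom and the likelihood-ratio test. Within these, Ppp1r10 was not called by DESeq2 or without a filter, Ppp1r21 not by voom, and Ppp1r2 not without a filter or by the likelihood-ratio test. They moved to 10 higher and 1 lower under library size alone and with limma-trend on the deposited RPKM, whether with a pseudocount of 0.1 or 1. Under these 3 settings, which share the scaling by library totals, Ppp1r37 turned to 0.00269, 0.00201 and 0.00197 and Ppp1r2 to 0.0677, 0.0676 and 0.0658. Leaving out single libraries gave 2 to 4 higher and 2 to 8 lower. The replicate block gave 5 higher and 5 lower: Ppp1cb (adjusted p = 0.0556) and Ppp1r2 (adjusted p = 0.0546) were not called and Ppp1r14c was (adjusted p = 0.0309). In their deviations from the genotype mean, same-numbered libraries correlated at 0.426, 0.0357 and 0.0892. The value of 0.426, for ∆Ex51 4 and WT 1, was the highest of any pair. ∆Ex51 5 and ∆Ex51 6 correlated best with another number. Deviations cancel within a genotype of 3 libraries, so these correlations cannot show whether a number marks a shared litter or batch. Of the values of single members under all alternatives, 426 kept direction and call, 47 lost a call, 30 gained one, 6 reversed, and 35 changed sign without a call or could not be compared. Ppp1r1a, Ppp1r9b and Ppp1r18 were called throughout. GENCODE lengths, added after seeing the data, put Ppp1cb above Ppp1ca and changed for no subunit whether its shares overlapped between genotypes. Ppp1r3b, Ppp1r3d, Ppp1r3e and Ppp1r14a held only 137 to 287 counts each over the 6 libraries. Ppp1r3c and Ppp1r27 had the largest SE of the tested members (0.37 and 0.50). The parts of depth and of spread between libraries were not separated.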
